A study of Mus musculus with 2 samples.

Results

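Genes of the connective tissue that lies beneath the gut epithelium were followed in a microarray comparison of mouse colon epithelial cells. The group holds 36 genes, which encode collagens, proteoglycans, other secreted matrix proteins and a few surface or filament proteins of fibroblasts. They were chosen on the MIF and PBS signals of these same arrays, with the earlier results for decorin, type III collagen and other fibroblast markers known, so their direction is a description and is not independent evidence. Every probe set carrying a single annotated symbol of 1 of these genes was taken, however dim. The table held 47 such probe sets for 32 of the 36 genes, out of 14049 singly named probe sets for 8721 genes. Col4a2, Col5a1, Col15a1 and Col18a1 were not analysed here.

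One preparation of cells had been incubated with MIF, taken here to be the cytokine macrophage migration inhibitory factor, and the other with PBS, a buffered saline. Both preparations came from colon epithelium of C57BL/6 mice, an inbred strain, aged 7 weeks, and neither carried another stated agent or allele. The labels do not say how epithelial cells were separated from the underlying tissue, how many mice were pooled, or the dose and time of incubation. Each group was hybridised to 1 Affymetrix array, so no spread between preparations could be measured, no test was possible, and every comparison below is between those 2 arrays.

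Fibroblasts of the lamina propria, the connective tissue below the colonic crypts, secrete most of the gut's interstitial matrix. Fibrillar collagens give this matrix its tensile strength, small leucine-rich proteoglycans coat the fibrils and set their spacing, and glycoproteins such as fibronectin and fibulins link fibrils to cells and to elastic fibres. Epithelial cells make little of these proteins, apart from part of the basement membrane on which they rest. In RNA of a whole preparation, more fibroblasts and more of a transcript per fibroblast cannot be told apart.

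The 2 arrays were close in scale. The median signal over all 15340 probe sets was 346 on the MIF array and 337 on the PBS array, a log2 difference of 0.04. The 18 spiked hybridisation controls lay between -0.08 and 0.20, with 0.08 as their median. Epithelial markers were bright on both arrays. All 16 listed genes were in the table, their summed signal was 107595 on the MIF array and 112595 on the PBS array, and Epcam, the epithelial adhesion molecule, was at 8830 and 8889 on the same arrays. The summed signal of the 32 stromal genes was 4667 on the MIF array and 2232 on the PBS array.

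Of the 32 stromal genes, 31 had the higher signal on the MIF array as deposited, 30 after median centring and 29 once the arrays were quantile-normalized or the intensity trend was taken out, against 50.7% of all 8721 named genes as deposited. Only Fbln1 was lower as deposited. With each gene read from its brightest probe set, the median log2 difference, MIF minus PBS, was 1.18 over these genes and 0.0039 over all named genes. The middle 50% of the stromal genes lay between 0.61 and 1.49, against -0.13 to 0.16 for all named genes. In 24 of the 32 the difference was at least 1.5-fold and in 20 at least 2-fold, always towards MIF. Of all 8721 named genes, 455 were at least 1.5-fold higher on the MIF array and 198 lower. At 2-fold, 170 were higher and 79 lower. These shares are also a background for the counts by class below, but they cover genes of every brightness. Most stromal genes were dim, and among dim genes the share at least 2-fold higher was larger, as given below.

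**Figure D1:**
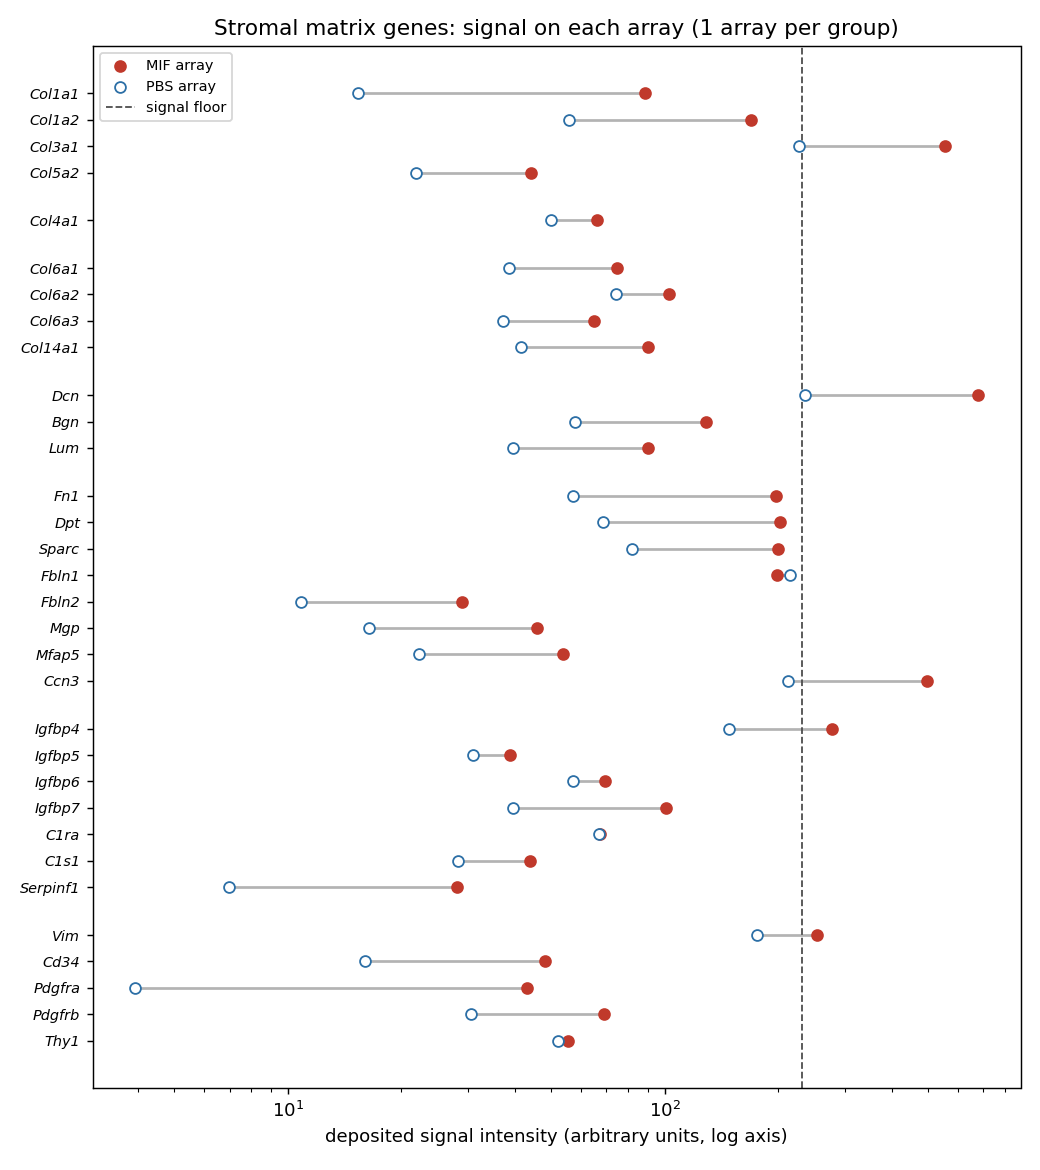
Deposited signal of the 32 stromal matrix genes on the MIF array (filled red) and the PBS array (open blue), on a log axis, with genes grouped by role from the fibrillar collagens at the top to the cell markers at the bottom. The dashed line is the signal floor of 232. In 31 genes the MIF point lies to the right (29 after quantile normalization), and in 27 both points lie under the floor.

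Most of these signals were dim. The 40th percentile of all signals other than array controls, a value of 232, served as a floor, and a gene counted as assessed when it reached it on at least 1 array. The floor is not a measured detection limit, since the values came without detection calls. As a guide, the bioB controls, the most dilute of the spiked bacterial transcripts, read 178 to 262 on the MIF array and 158 to 277 on the PBS array. Of the stromal genes, 27 were below the floor on each array and 1, Dcn, was above it on each. The other 4 reached it only on the MIF array.

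Dim probe sets scatter more, and as deposited they lean slightly towards MIF, so the dim stromal genes were set beside all dim genes. Among the 2884 named genes under the floor on both arrays, 58.8% were higher on the MIF array, 5.62% were higher by at least 2-fold, and the median log2 difference was 0.08, which turned to -0.03 with quantile normalization. These counts include the stromal genes, and over the other 2857 genes the shares were 58.4% and 5.08%. Of the 27 stromal genes in that range, 26 were higher, 17 of them by at least 2-fold, with a median of 1.18. Where the mean signal was under 50, 9 of 12 stromal genes were at least 2-fold higher, against 13.6% of all 951 genes there and 12.8% of the 939 others. Between 50 and 100 it was 5 of 11, against 3.44% of all 668 and 2.74% of the 657 others, and between 100 and the floor 3 of 4, against 0.791% of all 1265 and 0.555% of the 1261 others. The scatter of single genes was widest in the dimmest range, with an SD of 0.99 on the log2 scale under 50, 0.47 between 50 and 100 and 0.29 between 100 and the floor.

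**Figure D2:**
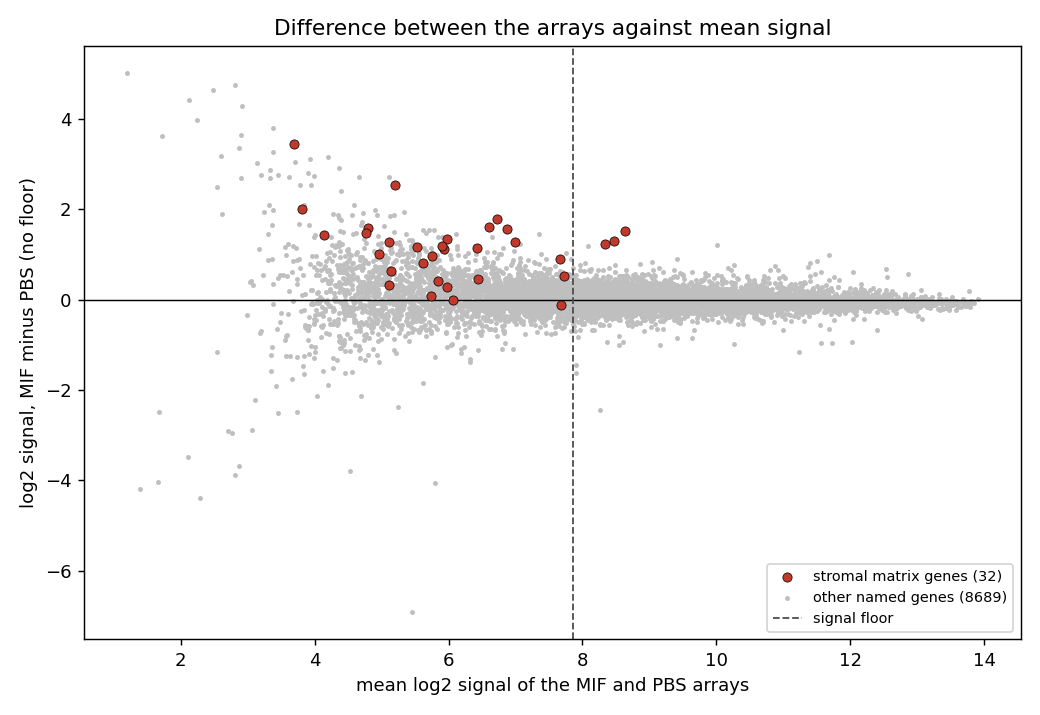
Log2 difference in signal (MIF minus PBS, no floor) against the mean log2 signal of both arrays, for the 32 stromal matrix genes (red) and 8689 other named genes (grey). The dashed line is the floor. Grey points widen to the left, where signals are dim, and 31 of the red points lie above 0 (29 after quantile normalization).

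Of the 5 fibrillar collagen genes listed, the 4 in the table were each at least 2-fold higher on the MIF array. Col3a1, the type III chain of soft, extensible tissues such as the gut wall, had a signal of 554 on the MIF array and 227 on the PBS array. The PBS signal lay just under the floor, so its difference is a bound of at least 2.39-fold. Its second probe set read 41.0 and 10.9 on the MIF and PBS arrays. Col1a2, which encodes the second chain of type I collagen, the main fibrillar collagen of the body, read 169 on the MIF array and 55.6 on the PBS array, a log2 difference without a floor of 1.61. Its partner Col1a1 was at 88.7 on the MIF array and 15.3 on the PBS array by 1 probe set, and at 40.1 and 19.3 by another, so the direction held while the size differed, with log2 differences of 2.53 and 1.05. Col5a2, a chain of the type V collagen that starts fibrils and limits their width, was at 44.2 on the MIF array and 21.9 on the PBS array.

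Stretches before the annotated transcription starts are shown for the 4 genes with the highest MIF signal among those that were at least 2-fold higher and whose promoter was in the RefSeq table used (build GRCm38.p6). They cover the 150 bases before the start, 5′ to 3′ on the gene's strand. Capitals mark the letters TATAAA for the TATA box, CCAAT for the CCAAT box, GGGCGG for the GC box, and TGACTCA or TGAGTCA for the AP-1 site, each on either strand; no marked letters overlap.
Col3a1, chr1:45311388-45311537, plus strand: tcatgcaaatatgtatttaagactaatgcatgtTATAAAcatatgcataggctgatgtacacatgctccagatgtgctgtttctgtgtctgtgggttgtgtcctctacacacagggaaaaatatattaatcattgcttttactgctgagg
Dpt, chr1:164796513-164796662, plus strand: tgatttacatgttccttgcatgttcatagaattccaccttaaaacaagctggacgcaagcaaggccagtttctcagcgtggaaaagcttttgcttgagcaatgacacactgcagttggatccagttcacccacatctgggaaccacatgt
Sparc, chr11:55420081-55420230, minus strand: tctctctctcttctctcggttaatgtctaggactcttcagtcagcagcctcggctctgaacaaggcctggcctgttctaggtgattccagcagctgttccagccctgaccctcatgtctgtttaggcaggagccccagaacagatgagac
Col1a2, chr6:4505468-4505617, plus strand: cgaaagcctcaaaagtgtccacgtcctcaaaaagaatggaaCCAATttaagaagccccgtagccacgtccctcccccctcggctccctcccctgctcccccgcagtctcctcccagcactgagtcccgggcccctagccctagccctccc
The Col3a1 stretch holds a TATA box match that begins 117 bases before the start, and the Col1a2 stretch a CCAAT match that begins 109 bases before it. The Dpt and Sparc stretches hold none of these letters.

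Promoters of 21 of the 32 genes were in the RefSeq table, and the full 250 bases before the start were searched in each. The CCAAT letters, the site of the factor NF-Y, were in 5 of the 21 genes (23.8%), against 37.5% of 27025 genes. GC boxes, read by Sp1-type factors, were in 6 (28.6%) against 35.4%, TATA boxes in 4 (19%) against 14.3%, and AP-1 sites in 1 (4.76%) against 5.16%. The shares lay above and below those of all promoters, and a match to letters is not a site of binding.

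Of the 5 other collagens in the table, 1 was at least 2-fold higher. This was Col14a1, a collagen that decorates fibril surfaces, which read 90.0 on the MIF array and 41.4 on the PBS array, a log2 difference of 1.12, against 1.01 for the fibrillar Col5a2. The 3 chains of type VI collagen, which forms beaded filaments around cells, were all higher on the MIF array, with Col6a1 at 74.9 and 38.5, Col6a3 at 64.8 and 37.2, and Col6a2 at 102 and 74.1 on the MIF and PBS arrays. Col4a1, a chain of the type IV network of basement membranes, had the smallest difference of the listed collagens, at 66.2 on the MIF array and 49.9 on the PBS array, a log2 difference of 0.41. That difference and the one of Col6a2, at 0.47, were less than the scatter between probe sets of a dim gene given below.

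The small leucine-rich proteoglycans were all higher. Dcn encodes decorin, which binds fibrillar collagen and can bind the growth factor TGF-beta, and was the single stromal gene above the floor on both arrays. Its signal was 678 on the MIF array and 235 on the PBS array, 2.89-fold higher. Bgn, for the related biglycan, read 128 on the MIF array and 57.6 on the PBS array, with a second probe set at 49.8 and 29.1. Lum, for lumican, which regulates fibril assembly, was at 90.3 on the MIF array and 39.5 on the PBS array. The log2 differences of Dcn, Lum and Bgn were thus close together, at 1.53, 1.19 and 1.15.

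Of the 8 other matrix proteins, 7 were at least 2-fold higher on the MIF array. Ccn3, a secreted regulator of cell adhesion and growth, read 497 on the MIF array and 212 on the PBS array, at least 2.15-fold higher, by a probe set whose probes can cross-hybridise. Its other probe set, not of that kind, read 426 and 197. Fn1, fibronectin, the glycoprotein to which many cells attach, was at 197 on the MIF array and 57.1 on the PBS array. Dpt, dermatopontin, a decorin-binding protein, was at 203 on the MIF array and 68.4 on the PBS array. Both lay under the floor on both arrays, with the MIF signal the nearer to it. Sparc, a collagen-binding calcium-binding protein, was measured by 2 probe sets, at 199 and 101 on the MIF array and 82.0 and 40.5 on the PBS array, with log2 differences of 1.28 and 1.32.

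The other matrix genes of this class were under the floor on both arrays. Mfap5, a microfibril protein, read 53.7 on the MIF array and 22.3 on the PBS array, and 44.0 and 17.8 by its second probe set. Mgp, matrix Gla protein, an inhibitor of calcification, was at 45.7 on the MIF array and 16.4 on the PBS array, and Fbln2, fibulin 2, at 29.0 and 10.8. Fbln1, fibulin 1, of the same family, was the exception among all 32 genes, at 198 on the MIF array and 214 on the PBS array, a log2 difference of -0.12. This difference was less than the scatter between probe sets of a dim gene.

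The secreted binding proteins and complement proteases were mixed in size. Igfbp4, which holds insulin-like growth factors away from their receptor, had 5 probe sets, from 71.4 to 277 on the MIF array and from 61.9 to 148 on the PBS array, and all were higher on the MIF array. Its brightest probe set gave a bound of at least 1.195-fold, and its log2 difference without a floor was 0.90. Igfbp7, a relative secreted by stromal and vascular cells, read 100.5 on the MIF array and 39.5 on the PBS array, and 23.1 and 11.7 by a second probe set. Serpinf1, for the anti-angiogenic serpin PEDF, was at 28.1 on the MIF array and 6.97 on the PBS array. C1s1, a protease of the first complement component, was at 43.7 and 28.3 on the MIF and PBS arrays.

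The other 3 genes of that class had the smallest differences in it. C1ra, the protease that activates C1s, had nearly equal signals, at 67.1 on the MIF array and 67.0 on the PBS array, and its sign turned to negative under median centring, quantile normalization and removal of the trend with intensity. Igfbp6, which prefers insulin-like growth factor 2, was at 69.3 on the MIF array and 57.2 on the PBS array. Igfbp5 was opposed between its probe sets, at 38.9 and 31.0 by the brighter and 15.8 and 46.3 by the other, on the MIF and PBS arrays. Its sign therefore turned when probe sets were averaged, to -0.61, and when _s_at probe sets were left out, to -1.55.

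The 5 cell markers were all higher on the MIF array as deposited, by very different amounts. Pdgfra, the receptor that marks most intestinal fibroblasts, read 43.0 on the MIF array and 3.93 on the PBS array. Its log2 difference of 3.45, which was 2.85 after quantile normalization, rests on a very dim PBS signal, in the range where single genes scattered most, so its size is uncertain. Pdgfrb, the related receptor of pericytes and fibroblasts, was at 69.1 on the MIF array and 30.6 on the PBS array. Cd34, a sialomucin of vascular endothelium and of some fibroblasts, was at 48.2 on the MIF array and 16.02 on the PBS array.

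Vim and Thy1, 2 further markers that fibroblasts share with other cells, differed less. Vim, vimentin, the intermediate filament of mesenchymal cells and of leukocytes, had 3 probe sets, at 253, 215 and 134 on the MIF array and 175, 185 and 92.9 on the PBS array, so each was higher on the MIF array. Only the first reached the floor, for a bound of at least 1.09-fold, and its probes can cross-hybridise. Without _x_at and _s_at probe sets Vim was not assessed, and its log2 difference without a floor was 0.22, against 0.53 by the first. Thy1, a surface glycoprotein of fibroblasts and mouse T cells, was at 55.3 on the MIF array and 52.1 on the PBS array, a log2 difference of 0.09 that turned to -0.07 with quantile normalization and -0.05 with the trend removed.

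Separate probe sets of a gene gave the only measure of error within these arrays, and it covers hybridisation of the same RNA and not the spread between preparations. Of the 11 stromal genes with several probe sets, 26 in all, 10 had every probe set higher on the MIF array and 1, Igfbp5, had them opposed. The pooled SD of the log2 difference between probe sets of a gene was 0.52 for these 11 genes, 0.49 for 914 genes under the floor on both arrays and 0.15 for 1800 genes above it on both. Over all 47 stromal probe sets, 45 were higher and 2 lower, and the lower ones were that of Fbln1 and the dimmer of Igfbp5. Probe sets of a gene read the same RNA, so this count adds little to that of genes. The latter was 31 of 32, against 50.7% of all named genes.

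**Figure D3:**
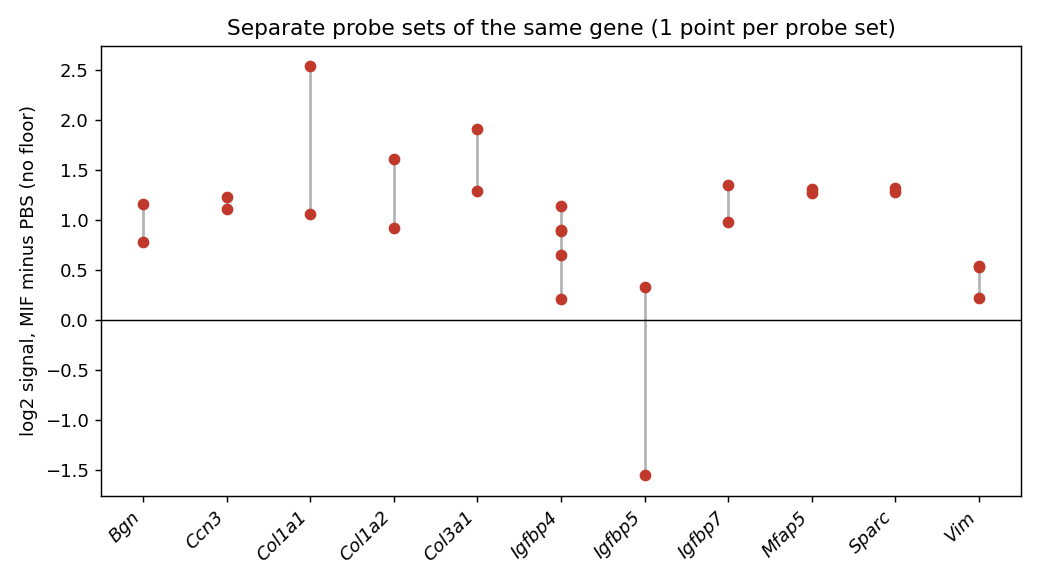
Log2 difference in signal (MIF minus PBS, no floor) of each probe set of the 11 stromal genes that have several. Points of a gene are joined by a grey line. Sparc, Mfap5 and Ccn3 probe sets nearly coincide, Col1a1 probe sets lie at 2.53 and 1.05, and only Igfbp5 has points on both sides of 0.

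With the floor applied, 5 stromal genes were assessed, namely Dcn, Col3a1, Ccn3, Igfbp4 and Vim. Of these, 3 were at least 1.5-fold higher on the MIF array and none was lower, against 0.634% and 0.463% of the 5837 assessed genes in those directions. Since 4 of the 5 passed only through the MIF array, their differences could not have been negative, and this count does not bear on direction. The 4 pairs of stromal genes that are direct neighbours in the gene order of the mouse assembly GRCm38.p6 had log2 differences without a floor of 1.29 and 1.01 for Col3a1 and Col5a2, 1.53 and 1.19 for Dcn and Lum, 0.96 and 0.47 for Col6a1 and Col6a2, and 0.0020 and 0.63 for C1ra and C1s1.

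Genes that process or bind this matrix were examined from lists drawn up with the earlier results known. Enzymes that hydroxylate, fold, cross-link or trim collagen had 12 of 25 genes in the table, with a median log2 difference without a floor of 0.01, 7 higher and 5 lower, and of -0.02 after median centring. The 2 assessed genes with the largest differences, the collagen glycosyltransferase Colgalt1 and the lysyl hydroxylase Plod3, read 448 and 423 on the MIF array and 539 and 442 on the PBS array. These enzymes are also used by epithelial cells. Pcolce, a secreted enhancer of procollagen cleavage made by connective tissue cells, was chosen after its values were seen. It read 55.1 on the MIF array and 6.11 on the PBS array. The PBS signal is very dim, in the range where single genes scattered most, so the size is uncertain. Other dim genes of the list, also chosen after their values were seen, went both ways. Serpinh1 read 38.8 on the MIF array and 23.0 on the PBS array, and Loxl3 24.6 and 28.4.

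Matrix proteases and their inhibitors had 11 of 28 genes in the table, with a median of 0.16. Ctsl and Adam17, a lysosomal and a membrane protease, were at 1934 and 587 on the MIF array and 1670 and 527 on the PBS array. The 3 inhibitors of metalloproteases in the table, chosen after their values were seen, were at least 2-fold higher at dim signals. Timp2 read 138 on the MIF array and 65.8 on the PBS array, Timp3 103 and 47.4, and Timp4 64.6 and 30.7 on the same arrays.

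The TGF-beta pathway, which drives collagen synthesis in fibroblasts, had 15 of 21 genes in the table, 11 higher and 4 lower, with a median of 0.17 and none at 2-fold. Its receptors had the largest differences of the assessed genes, with Tgfbr2 at 965 on the MIF array and 758 on the PBS array, and Tgfbr1 at 532 and 424. Synthesis of the sugar chains of proteoglycans had 12 of 23 genes in the table and a median of 0.01, which became -0.03 after median centring, with the heparan sulphate enzymes Ext2 at 760 and Glce at 502 on the MIF array, against 663 and 457 on the PBS array. Integrins and other matrix receptors had 15 of 22 in the table and a median of 0.03, which became -0.0064 after median centring. Among them the collagen receptor Ddr1 read 2803 on the MIF array and 2459 on the PBS array, and the integrin Itgb4, which anchors epithelium to its basement membrane, 353 and 403. In none of these 5 lists was an assessed gene at least 1.5-fold higher or lower. Without a floor, some genes were at least 2-fold higher. These were 1 of 12 collagen enzyme genes, 4 of 11 protease and inhibitor genes and 1 of 12 sugar chain genes. The integrin and receptor list had 0, and no gene of the 5 lists was at least 2-fold lower. The genes past 2-fold lay under the floor on both arrays, where 5.62% of all named genes were at least 2-fold higher. That share covers dim genes only, whereas these 3 lists also held 3, 5 and 7 assessed genes in the same order. The shares among the dim genes of these lists were therefore larger than the counts over whole lists.

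Markers of other cells that could accompany epithelium were read in the same way, and their part in the stromal difference was not tested. Smooth muscle and pericyte markers had 6 of 13 genes in the table, with 4 higher, a median log2 difference of 0.51, and a summed signal of 972 on the MIF array and 940 on the PBS array. Acta2, the actin of smooth muscle and myofibroblasts, chosen after its values were seen, was at 186 on the MIF array and 97.4 on the PBS array, whereas Mylk, a kinase of smooth muscle contraction, was at 574 and 658 and made up most of both sums. Endothelial markers had 6 of 12 in the table, with 5 higher (4 after quantile normalization), a median of 0.64 and sums of 234 and 150 on the MIF and PBS arrays, all under the floor. Macrophage and dendritic cell markers had 11 of 14 in the table, with 6 higher and 5 lower. Their median was 0.35, or 0.16 after quantile normalization, with sums of 2225 on the MIF array and 2111 on the PBS array. Their 2 assessed genes, Lyz2 and Cd14, read 243 and 1307 on the MIF array and 188 and 1318 on the PBS array. Cd14 alone made up most of both sums.

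Lymphocyte markers went the other way. They had 6 of 15 genes in the table, all 6 lower on the MIF array, with sums of 804 on the MIF array and 1554 on the PBS array. The granzyme genes Gzma and Gzmb read 403 and 282 on the MIF array and 813 and 541 on the PBS array. Sox10, the single enteric glia or neuron marker of 11 in the table, was at 38.6 and 42.0 on the MIF and PBS arrays. Epithelial markers had a median log2 difference of -0.06, with 4 of 16 higher, but of 0.0085 with 9 higher after quantile normalization. The assessed genes with the largest differences were Cdh1, at 6386 on the MIF array and 5516 on the PBS array, and Krt19, at 10445 and 12233.

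**Figure D4:**
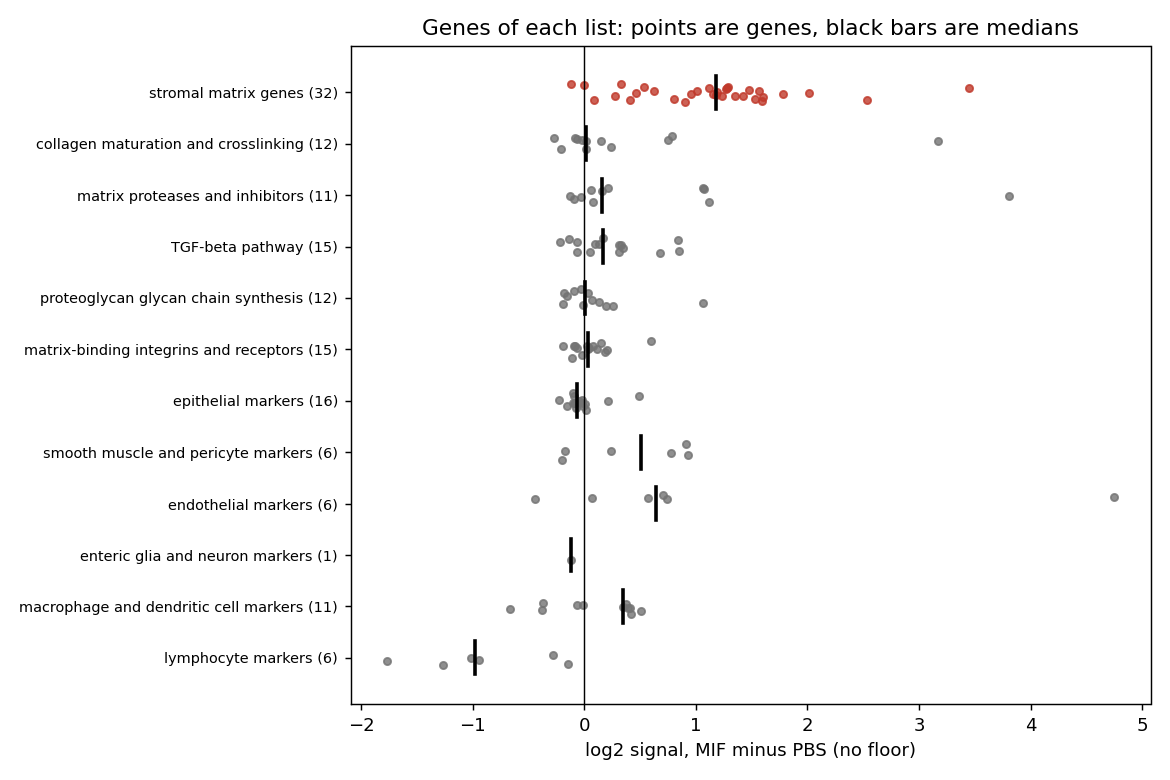
Log2 difference in signal (MIF minus PBS, no floor) of each gene in the stromal group (red, top row) and in the other lists (grey), with the number of genes in brackets and the median as a black bar. The stromal median lies at 1.18, the lists of matrix enzymes and receptors between 0.01 and 0.17 as deposited, endothelial markers at 0.64, smooth muscle and pericyte markers at 0.51, macrophage and dendritic cell markers at 0.35, epithelial markers at -0.06 (0.0085 after quantile normalization) and lymphocyte markers at -0.98.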

How the data were processed

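The authors' deposited values are probe set signal intensities, judged from their range to be linear. Trizol was used to extract total RNA, and biotin-labelled cRNA was made for Affymetrix arrays, per the labels' protocols. How probes were summarised, corrected for background and scaled is not given in the sources used here. Of 15340 probe sets, 61 array controls were set aside, 14049 had 1 symbol in GEO's platform annotation, 490 several and 740 none. Symbols were updated by Entrez ID for 14034 of them. Column medians differed by 0.04 on the log2 scale, under the limit of 0.1 for centring. Signals were used as deposited, or raised to a floor at the 40th percentile (232) where stated. A gene was read from its brightest probe set by mean log2 signal. With 1 array per group, the number of arrays limits the precision and no p-value is given.

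Every stromal gene in the table is named. From each other list the 2 assessed genes with the largest differences are named. Others are marked as chosen after their values were seen, except Epcam and Sox10, the only glia or neuron marker in the table. The members and lists were chosen with earlier results of these data known. Alternatives were floors at the 20th and 60th percentile and none, median centring, quantile normalization, the average over a gene's probe sets, removal of a loess trend (span 0.3), exclusion of the _x_at and _s_at types, and a 2-fold threshold. The choice of the brightest probe set, the fold threshold, the floor and the pooled SD were tried on simulated data. The noise drawn there was less than the scatter of dim genes on these arrays, and the other steps were not tried in this way. The software was statsmodels 0.14.6, matplotlib 3.10.9, pandas 2.3.3 and numpy 2.4.6 under Python 3.11.15.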

Additional observations from a re-analysis of the deposited data

How the results depend on the processing

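Without a floor, 31 stromal genes were higher on the MIF array as deposited, 30 with median centring or averaged probe sets, and 29 with quantile normalization, with the loess trend removed, or without probe sets ending in _x_at or _s_at, where 31 genes remained. The genes whose sign turned were C1ra, Thy1 and Igfbp5. The median difference over the group was between 1.03 and 1.18 in these settings. The results that need the floor depended on it. With the floor at the 20th percentile (a signal of 90.1), 14 genes were assessed, 13 were higher, 8 by at least 1.5-fold, and the median of the assessed genes was 0.90, against 1.10 with the floor at 232. At the 60th percentile (a signal of 498), 2 genes were assessed and higher, 0 by at least 1.5-fold, with a median of 0.30. These 2, Dcn and Col3a1, passed only through the MIF array, as did most of the 14 at the 20th percentile. Such genes could not have been lower, so the counts at these floors do not bear on direction. With no floor 24 stromal genes were at least 1.5-fold higher, against 455 of all 8721 named genes. With averaged probe sets 2 genes were assessed, Dcn at 1.53 and Ccn3 at 0.99, both at least 1.5-fold higher, and their median was 1.26. No assessed gene was at least 1.5-fold lower in any of these settings. With a floor, that was fixed in advance for genes that passed only through the MIF array. Dcn, at 1.53, became 0.45 at the 60th percentile, and Col3a1, at 1.26, became 0.15. No paired analysis was possible because each group has 1 array. Dim signal limits these data, since 27 of the 32 genes lay under the floor on both arrays.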

Other observations

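Other genes of fibroblasts and of the matrix, outside the 36 listed and all chosen after their values were seen, went both ways, and a number of them were higher on the MIF array at dim signals. Postn, for periostin, a matrix protein of fibroblasts, read 183 on the MIF array and 86.3 on the PBS array. Ogn, for osteoglycin, a small leucine-rich proteoglycan, read 59.4 and 15.1, and Eln, for elastin, 47.2 and 20.01 on the same arrays. Tcf21, a transcription factor of mesenchymal progenitors, was at 89.8 on the MIF array and 30.7 on the PBS array. Scara5, a ferritin receptor, was at 79.5 and 20.7, and Fstl1, a secreted glycoprotein, at 58.1 and 18.7. Serping1, the inhibitor of the C1 proteases, was at 161 on the MIF array and 61.8 on the PBS array. All of these lay under the floor on both arrays.

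Other matrix genes were lower on the MIF array or differed little. Acan, for the cartilage proteoglycan aggrecan, read 8.63 on the MIF array and 20.8 on the PBS array. Agrn, for the basement membrane proteoglycan agrin, read 682 and 848, above the floor on both arrays, and Comp, a cartilage matrix protein, 36.5 and 31.9. Of the 4 collagen chains in the table outside the list, 2 were higher and 2 lower as deposited. Col9a1 read 23.1 on the MIF array and 15.5 on the PBS array, Col8a1 102 and 81.4, Col4a5 16.4 and 18.4, and Col7a1 31.5 and 37.8.

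A probe set that the annotation ties to both C1ra and C1rb, and which therefore was left out above, read 33.6 on the MIF array and 16.5 on the PBS array, whereas the probe set of C1ra alone had nearly equal signals.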
